A study of Arabidopsis thaliana with 8 samples.

Results

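Arabidopsis roots of wild type (WT) and of a uri mutant were compared with and without iron, and the result described here is the genotype by iron interaction, the iron response in uri minus the iron response in WT. All 8 arrays of the series entered, in 4 groups of 2 biological replicates, WT -Fe, WT +Fe, uri -Fe and uri +Fe. The labels describe plants kept for 14 days on Gamborg B5 medium and then moved for 3 days either to medium with 50 µM Fe(III)-EDTA (+Fe) or to medium with 300 µM ferrozine, an iron chelator (-Fe). Whole roots were harvested, and their RNA was labelled as biotinylated cRNA and hybridised to 1-colour Affymetrix arrays. Neither the allele of uri, the number of independent lines nor the accession of the wild type is stated in the labels. An iron response is the difference -Fe minus +Fe in log2 intensity, so that a negative interaction means that a gene was higher in WT, relative to uri, without iron than with iron.

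URI (AT3G19860, also called bHLH121) is a basic helix-loop-helix transcription factor that acts near the top of the iron deficiency cascade of Arabidopsis. Together with related factors of subgroup IVc (ILR3, bHLH34, bHLH104 and bHLH115) it activates the subgroup Ib factors bHLH38, bHLH39, bHLH100 and bHLH101, which pair with FIT to switch on iron uptake in the root epidermis. The same cascade drives the synthesis and secretion of coumarins, phenolic compounds that mobilise iron in the soil, and includes the brake formed by the E3 ligase BTS and the repressor PYE. Roots short of iron also lower ferritin, the iron storage protein, and replace iron enzymes by copper enzymes. Several gene names used below, among them URI, BTSL1, BTSL2, IMA1, MTP8, S8H, COSY and SDI2, come from common use rather than from the annotation tables, and the locus code is given for them.

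On the 8 arrays the median intensity lay between 119 and 128 on the linear scale, and replicate arrays correlated at r = 0.994 to 0.998 over all probe sets. No detection calls came with the values. A gene whose group mean lay under the lower quartile of its arrays, about 4.66 to 4.73 log2 units, is called dim below, and the size of its change is uncertain. The URI transcript itself did not follow the genotype labels in both media. It was at 8.73 and 8.78 on the WT +Fe arrays against 7.84 and 7.64 on the uri +Fe arrays, but the arrays labelled uri -Fe read 8.52 and 8.62 against 8.64 and 8.60 for WT -Fe. The genotypes did not overlap with iron (difference -1.02, adjusted p = 0.000752) and overlapped without iron (difference -0.05, adjusted p = 0.804). A transcript level does not show whether a mutant protein is made, and the place of the probe set relative to the mutation is not stated in the labels. Every direction drawn from the arrays labelled uri -Fe rests on their label. The sample titles carry a separate number series for the -Fe and for the +Fe arrays. Within a single genotype the number series and the iron supply cannot be told apart. An offset common to both genotypes cancels in the interaction, and the genotype differences within each number series, uri against WT without iron and uri against WT with iron, are given below beside the interaction.

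Without iron, genes of coumarin synthesis and several genes of iron regulation, uptake and distribution rose less in uri than in WT or did not rise, ferritin genes fell in both genotypes, and a much larger number of genes that were not called in WT rose or fell in uri. In the linear model (limma, Benjamini-Hochberg adjusted p under 0.05), 1285 of 22746 probe sets changed with iron in WT (5.65%), 798 upward (3.51%) and 487 downward (2.14%). In uri 7528 probe sets changed (33.1%), 3434 upward (15.1%) and 4094 downward (18%). The upward share of these calls was 45.6%, and median centring of the arrays moved it to 54.9%. The interaction was called for 4637 probe sets (20.4%). The response was higher in uri than in WT for 2183 (9.6%) and lower for 2454 (10.8%), and its size reached 2-fold for 782 of the former and 693 of the latter. The median interaction over all probe sets was close to 0, at 0.0004. The interaction shares all of its arrays with the responses of WT and uri, so that the 3 counts are not independent of each other. All values are of whole roots, in which fewer cells of a type and less RNA per cell cannot be told apart.

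**Figure D1:**
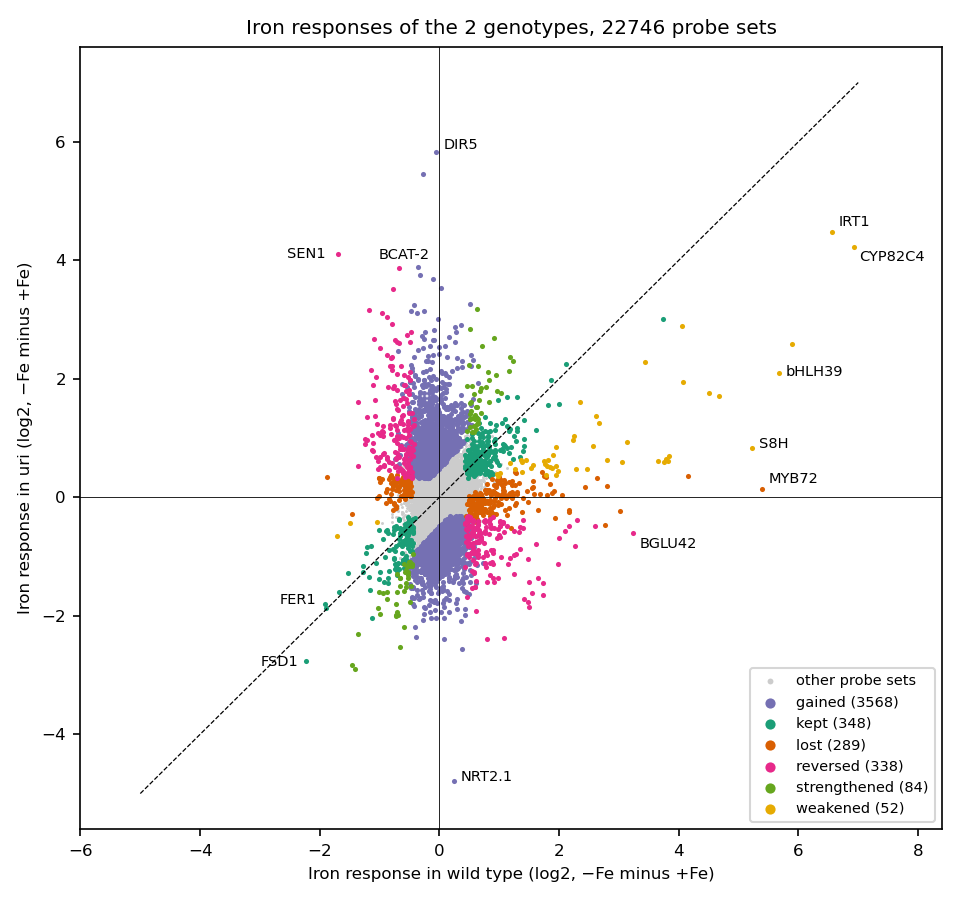
Iron response (-Fe minus +Fe, log2) of each probe set in WT on the horizontal axis and in uri on the vertical axis, coloured by response class, with the dashed line marking equal responses. IRT1, CYP82C4 and bHLH39 lie to the right below the line with a positive response in both genotypes, MYB72 lies near 0 in uri, FER1 and FSD1 lie near the line, and SEN1, DIR5 and BCAT-2 rise and NRT2.1 falls in uri.

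Each probe set was put into a class by its calls in WT, in uri and in the interaction. A response was termed lost where WT changed, uri did not and the interaction was called against the direction of WT. It was termed weakened or strengthened where both genotypes changed in the same direction and the interaction was called, kept where both changed in the same direction and the interaction was not called, gained where only uri changed and the interaction was called, and reversed where the genotypes changed in opposite directions with the interaction called. Of the 798 rises of WT, 199 were lost (24.9%), 49 were weakened (6.14%), 221 were kept (27.7%), 44 were strengthened (5.51%), 165 were reversed (20.7%) and 120 were undecided, that is, called neither in uri nor in the interaction. Among the 192 rises of at least 2-fold the lost share was 33.3%, the weakened share 24.5%, the kept share 17.7% and the reversed share 20.8%. Of the 487 falls of WT, 90 were lost (18.5%), 3 were weakened, 127 were kept (26.1%), 40 were strengthened, 173 were reversed (35.5%) and 54 were undecided. As shares of all probe sets tested, lost rises made up 0.875%, weakened rises 0.215%, kept rises 0.972%, strengthened rises 0.193% and reversed rises 0.725%, and the falls 0.396%, 0.0132%, 0.558%, 0.176% and 0.761% in the same order. Undecided changes of either genotype made up 5.86% (rises) and 8.7% (falls), and interactions called without a change in either genotype 0.607% (positive) and 0.739% (negative). A kept response is not shown to be equal in both genotypes, but the 95% interval of the interaction lay within 1 log2 unit on either side of 0 for 209 of the 221 kept rises and for 120 of the 127 kept falls.

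The gained class held 1735 rises (7.63% of all probe sets) and 1833 falls (8.06%) that were called in uri and not in WT. The median gained rise was -0.13 in WT and 0.75 in uri, and the median gained fall was 0.05 in WT and -0.76 in uri. Most of this difference lay on the arrays without iron. Without iron 6057 probe sets differed between the genotypes (26.6%), 2784 of them higher (12.2%) and 3273 lower (14.4%) in uri. With iron 709 differed (3.12%), 304 higher (1.34%) and 405 lower (1.78%). Of the 4637 probe sets with a called interaction, 3594 differed between the genotypes without iron only, 158 with iron only, 344 in both media and 541 in neither. These 2 contrasts between the genotypes were added after the design of the comparison had been set.

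Class sizes depended on single arrays, in particular on those of WT. Without WT -Fe replicate 1 the interaction was called for 2905 probe sets and without WT -Fe replicate 2 for 2849, against 1285 calls in WT that became 494 and 435 (647 without WT +Fe replicate 1 and 821 without WT +Fe replicate 2). Lost rises then numbered 113 and 103 (115 without WT +Fe replicate 1), kept rises 96 and 79 (112 without WT +Fe replicate 1) and reversed rises 67 and 68 (87 without WT +Fe replicate 1). Lost falls numbered 25 and 18 (41 and 48 without WT +Fe replicates 1 and 2), kept falls 35 and 33 (77 and 51) and reversed falls 59 and 49 (86 and 81). Gained falls numbered 1157 and 1115 without the WT -Fe arrays and 1201 without uri -Fe replicate 2, while gained rises stayed between 1202 and 1816. The small strengthened classes held 6 to 76 rises and 6 to 66 falls over the 8 such fits, with the fewest without WT -Fe replicate 2, and the 3 weakened falls became 1 without uri -Fe replicate 1. The median reversed rise was 0.66 in WT and -0.69 in uri, and several of the reversed genes named below were called gained when 1 array was left out.

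**Figure D2:**
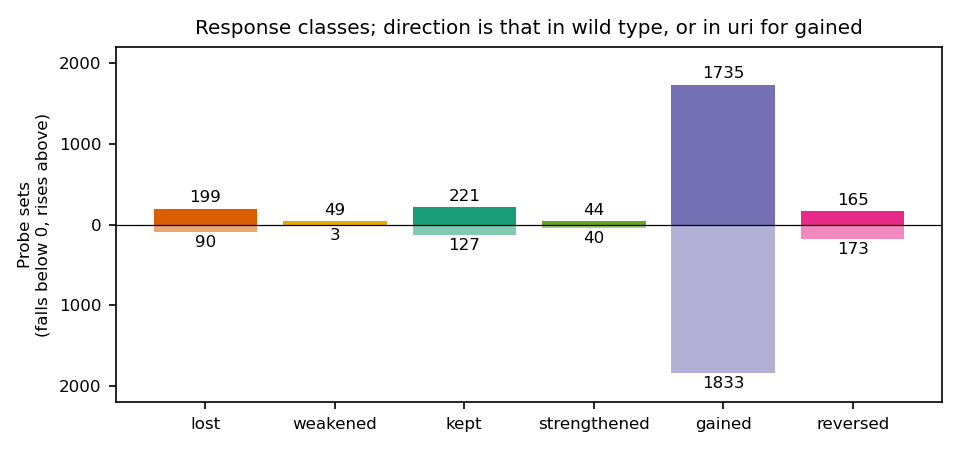
Number of probe sets in each response class, with rises above and falls below 0 on a linear axis that starts at 0. Gained responses (1735 rises and 1833 falls) outnumber lost rises (199), kept rises (221) and reversed rises (165).

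The transcription factors and regulators of the cascade lost part of their rise. Of 12 measured iron regulators, 7 had a lower and 2 a higher response in uri, with a median interaction of -0.81. Over all probe sets, beside which each list count below is to be read, 10.8% had a lower and 9.6% a higher response. Without iron 14.4% of all probe sets were lower and 12.2% higher in uri, and with iron 1.78% and 1.34%. FIT, bHLH38 and bHLH100 were not analysed here. For bHLH39 (AT3G56980) the WT -Fe arrays read 10.07 and 10.03 and the WT +Fe arrays 4.40 and 4.36, while the uri -Fe arrays read 6.34 and 6.14 and the uri +Fe arrays 4.11 and 4.19. The uri -Fe arrays stood between the WT -Fe arrays and all arrays with iron, with no overlap. Its rise was 50.8-fold in WT and 4.27-fold in uri, an interaction of -3.57 ± 0.17 (SE, adjusted p = 7.56e-08), although bHLH39 was dim with iron in both genotypes.

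The other measured subgroup Ib factor, bHLH101 (AT5G04150), read 9.25 and 9.28 on the WT -Fe arrays but 8.25 and 7.73 on the uri -Fe arrays, against 5.01 and 5.41 (WT) and 5.16 and 5.04 (uri) with iron. The response was 4.05 in WT and 2.89 in uri (interaction -1.17 ± 0.25, adjusted p = 0.00522), so both genotypes separated clearly from their arrays with iron. IMA1 (AT1G47400), a small peptide that promotes the deficiency response, rose by 2.67 in WT and by 1.26 in uri and was also dim with iron.

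The negative regulators lost their rise. BTSL1 (AT1G74770), an E3 ligase of the root, was at 11.53 and 11.46 on the WT -Fe arrays and at 9.13 and 8.88 on the uri -Fe arrays, with 8.61 to 8.89 on the 4 arrays with iron. Its response was 2.64 in WT and 0.33 in uri (interaction -2.30 ± 0.18, adjusted p = 3.08e-06), and its relative BTSL2 (AT1G18910) had 1.78 and 0.35. PYE (AT3G47640), a bHLH repressor, had a response of 0.70 in WT and -0.25 in uri (interaction -0.95 ± 0.18). For BTS (AT3G18290) the values were 1.00 and 0.34, with an interaction of -0.66 ± 0.21 at the edge of the threshold (adjusted p = 0.0415), and with 1 array left out the loss was called in 1 of 8 fits. The subgroup IVc partners of URI moved little. ILR3 (AT5G54680) had 0.49 in WT and 0.40 in uri, bHLH115 (AT1G51070) had 0.45 and 0.28, and bHLH34 (AT3G23210) had -0.10 and -0.53, all without a called interaction. The IVc factor bHLH104 (AT4G14410) rose in uri, by 0.66, and not in WT, at -0.09 (interaction 0.74 ± 0.16, adjusted p = 0.00605).

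At the root surface IRT1 rose in both genotypes, while the other uptake genes took different courses. Of 5 measured uptake genes 4 had a lower and 1 a higher response in uri, with a median interaction of -2.09. The ferric reductase FRO2 was not analysed here. IRT1 (AT4G19690), the main iron importer of the root, read 11.85 and 11.93 on the WT -Fe arrays, 10.22 and 9.70 on the uri -Fe arrays, and 5.06 to 5.63 on the 4 arrays with iron. The rise was 94.9-fold in WT and 22.3-fold in uri (interaction -2.09 ± 0.27, adjusted p = 0.000201), and the uri -Fe arrays lay between the WT -Fe arrays and the arrays with iron, with no overlap. The related transporter IRT2 (AT4G19680) rose by 2.43 in WT and had 0.17 in uri, which was not called.

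Proton pumps acidify the soil around the root. AHA7 (AT3G60330), a plasma membrane proton ATPase, was at 9.67 and 9.84 on the WT -Fe arrays and 8.36 and 8.65 on the WT +Fe arrays, and at 7.71 and 7.44 on the uri -Fe arrays against 8.91 and 8.81 with iron. The 2 genotypes thus changed in opposite directions (interaction -2.54 ± 0.20, adjusted p = 3.81e-06). AHA2 (AT4G30190), the main proton pump of the root, fell by 0.41 in uri and had 0.39 in WT (interaction -0.81). The exception was NRAMP1 (AT1G80830), a manganese and iron importer, which read 12.19 and 12.24 on the uri -Fe arrays and 10.47 to 11.00 on the other 6 arrays. It rose by 1.59 in uri against 0.35 in WT, which was not called (interaction 1.23 ± 0.17, adjusted p = 0.0003).

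**Figure D3:**
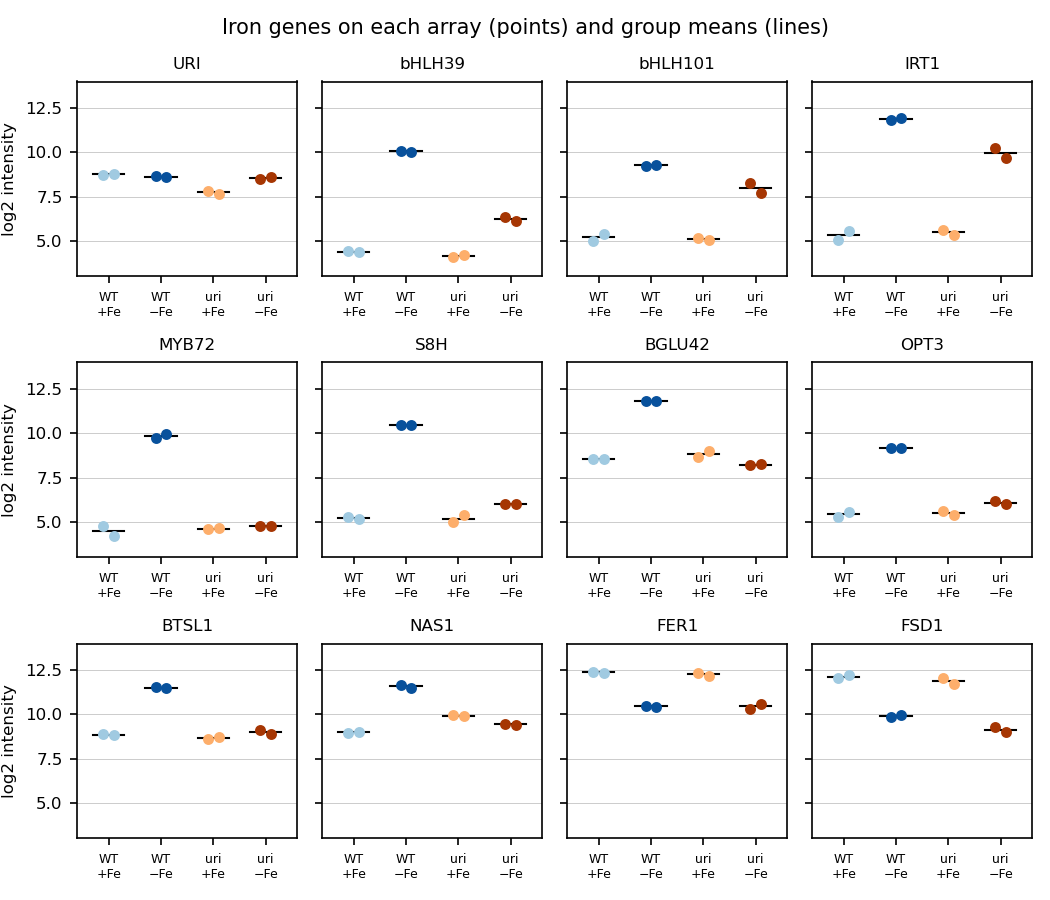
Log2 intensity on each of the 8 arrays (points), with a short line at each group mean, for 12 genes of iron regulation, uptake, coumarin synthesis, iron distribution and storage, in WT and uri with and without iron. MYB72, S8H, OPT3 and BTSL1 stay low on the uri -Fe arrays, IRT1 and bHLH101 rise in both genotypes, and FER1 and FSD1 fall in both.

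Several vacuolar transporters take up the zinc and manganese that enter through IRT1 beside iron. The list of vacuolar metal transporters also holds genes of other kinds, ZIF1, NRAMP3 and NRAMP4. Of 7 measured, 4 had a lower response in uri and none a higher one (median interaction -1.25), and all 4 still rose in uri. MTP3 (AT3G58810), a zinc transporter, rose by 4.06 in WT and 1.95 in uri, and FPN2 (AT5G03570) rose by 2.62 and 1.38. For the heavy metal pump HMA3 (AT4G30120) the rise was 3.04 in WT and 0.60 in uri, and for the manganese transporter MTP8 (AT3G58060) it was 3.81 and 0.61, with MTP8 dim with iron. The small rises of HMA3 and MTP8 in uri were not called in every fit with 1 array left out. ZIF1 (AT5G13740), a nicotianamine transporter of the tonoplast, rose alike, by 0.82 and 0.95, with an interaction of 0.14 (95% interval -0.23 to 0.50). NRAMP3 and NRAMP4 had no called interaction either, at 0.46 and -0.51. That of NRAMP4 was called with the pseudocount, with low values left out and with the eBayes trend and robust options.

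Coumarin synthesis and secretion was the only list of the 31 in which the interaction was called lower in uri for every measured gene. All 8 genes were called, with a median interaction of -2.92 against 0.0004 over all probe sets, and all 8 also differed between the genotypes without iron and none with iron. MYB72 (AT1G56160), the transcription factor that drives coumarin synthesis and secretion in roots, was at 9.76 and 9.98 on the WT -Fe arrays, at 4.74 and 4.78 on the uri -Fe arrays and no higher than that with iron. Its rise was 42.1-fold in WT, against a response of 0.14 in uri that was not called, the most negative interaction of the iron lists at -5.25 ± 0.23 (adjusted p = 5.65e-08), and it was dim with iron. The related factor MYB10 (AT3G12820) rose by 3.79 in WT and by 0.64 in uri.

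The enzymes differed in what was left of their rise. F6'H1 (AT3G13610), which makes scopoletin precursors, was at 12.67 and 12.62 on the WT -Fe arrays and at 10.16 and 10.08 on the uri -Fe arrays, against 9.78 to 10.09 with iron. Its response was 2.81 in WT and 0.19 in uri (interaction -2.61 ± 0.18). S8H (AT3G12900), which makes fraxetin, read 10.46 and 10.45 on the WT -Fe arrays, 6.01 and 6.03 on the uri -Fe arrays and 4.99 to 5.39 with iron, so uri kept a small rise of 0.84. CYP82C4 (AT4G31940), the next enzyme, rose most of the 8, by 6.92 in WT and still by 4.23 in uri (interaction -2.69 ± 0.26), from a dim level with iron. The beta-glucosidase BGLU42 (AT5G36890), which releases coumarins from their sugars, was at 11.81 and 11.80 without iron in WT, against 8.56 and 8.56 with iron. In uri it was lower without iron, at 8.21 and 8.26, than with iron, at 8.67 and 9.00 (interaction -3.85 ± 0.18, adjusted p = 7.96e-08). The exporter ABCG37 (AT3G53480) rose by 2.23 in WT and 0.96 in uri, and COSY (AT1G28680), coumarin synthase, rose by 0.91 in WT and fell by 0.52 in uri.

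The general phenylpropanoid pathway feeds coumarins, lignin and flavonoids. Of 16 measured genes 12 had a lower response in uri and none a higher one (median -0.87), and 7 of them rose in WT and fell in uri. PAL1 (AT2G37040), the entry enzyme, rose by 1.28 in WT and fell by 0.95 in uri (interaction -2.24 ± 0.16), and the ligase 4CL1 (AT1G51680) rose by 0.90 and fell by 0.94. For PAL2 (AT3G53260) the values were 1.93 and -0.35, the latter not called. Among genes of the lignin branch, CYP98A3 also rose in WT and fell in uri, with an interaction of -1.25. Smaller interactions were those of CCoAOMT1 (AT4G34050) at -0.62, CCR1 (AT1G15950) at -0.57 and COMT1 (AT5G54160) at -0.55.

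In the flavonoid branch the genotypes differed in both media. Of 8 measured flavonoid genes 6 had a lower response in uri, with a median of -1.64. With iron 6 were higher in uri than in WT (median difference 1.18), and without iron 4 were lower (median difference -0.46). FLS1 (AT5G08640), flavonol synthase, was at 11.35 and 11.55 on the uri +Fe arrays against 9.47 and 9.45 on the WT +Fe arrays, and at 9.68 and 9.99 against 10.99 and 11.03 without iron. The order of the genotypes was thus opposite in the 2 media (interaction -3.16 ± 0.19, adjusted p = 4.02e-07), with a difference of uri from WT of 1.99 with iron and -1.17 without. CHI (AT3G55120), F3'H (AT5G07990) and F3H (AT3G51240), which act before flavonol synthase, had interactions of -3.00, -2.92 and -1.97 with the same pattern of a rise in WT and a fall in uri. The 4-coumarate ligase of this branch, 4CL3 (AT1G65060), also rose in WT and fell, by 1.85, in uri (interaction -3.35 ± 0.32).

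Genes of iron movement within the plant did not all move alike. Of 15 measured genes, 6 had a lower and 1 a higher response in uri (median -0.29), and 8 had no called interaction. The higher gene was YSL3, at 1.12. OPT3 (AT4G16370), a phloem iron transporter, was at 9.17 on both WT -Fe arrays and at 6.17 and 5.99 on the uri -Fe arrays, with 5.29 to 5.60 with iron. It rose by 3.75 in WT and by 0.60 in uri (interaction -3.15 ± 0.19, adjusted p = 5.1e-07). NAS1 (AT5G04950), which makes the metal chelator nicotianamine, read 11.67 and 11.50 (WT) and 9.46 and 9.40 (uri) without iron, and 8.96 and 9.01 (WT) and 9.94 and 9.91 (uri) with iron. It was therefore higher in uri with iron and higher in WT without iron, with no overlap in either medium (interaction -3.09 ± 0.16, adjusted p = 1.69e-07). NAS2 (AT5G56080) behaved likewise, with 0.65 in WT and -0.89 in uri, and NAS4 (AT1G56430) rose by 1.68 in WT only, with 0.06 in uri. The citrate transporter FRD3 (AT3G08040) and the xylem-side exporter FPN1 (AT2G38460) had no called interaction, at -0.29 and -0.34. Genes of methionine recycling, which supply the substrate of nicotianamine, had a lower response for 6 of 9 measured and a higher one for none (median -0.76). Among them MTI1 (AT2G05830) rose by 1.38 and 0.42 in WT and uri, and the S-adenosylmethionine synthetase SAM1 (AT1G02500) had 0.89 and -0.16.

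Ferritin genes fell in both genotypes. Of 10 measured iron storage genes none had a lower (1, FER2, without uri -Fe replicate 2) and 1 had a higher response in uri (median 0.18). In the kept class were 5, the 4 ferritin genes and VTL1, while VIT1, VTL3 and VTL4 were called in neither genotype and VTL5 was undecided. FER1 (AT5G01600), a ferritin, was at 10.46 and 10.43 (WT) and 10.33 and 10.56 (uri) without iron and at 12.42 and 12.31 (WT) and 12.31 and 12.19 (uri) with iron. The genotypes overlapped in each medium, and the fall was 3.78-fold in WT and 3.50-fold in uri, with an interaction of 0.11 (95% interval -0.26 to 0.49). FER2 (AT3G11050) fell by 0.74 in WT and 1.12 in uri, in the kept class in 3 of 8 fits with 1 array left out. FER3 (AT3G56090) fell by 1.02 in WT and 1.38 in uri, FER4 (AT2G40300) by 0.95 and 0.71, and the vacuolar iron transporter-like gene VTL1 (AT1G21140) by 1.28 and 1.16. VTL2 (AT1G76800) was the exception, with a fall of 1.71 in WT and 0.66 in uri (interaction 1.05 ± 0.18, limma adjusted p = 0.00116). Its difference between the genotypes was called with iron only, where it was lower in uri. Of the 10 storage genes, 3 were lower in uri with iron and 1 without iron, and none was higher in either medium. Over all probe sets 1.78% were lower in uri with iron and 14.4% without iron.

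A fall of the iron superoxide dismutase and a rise of the copper enzyme CSD1 and its chaperone were likewise present in both genotypes. FSD1 (AT4G25100), the iron superoxide dismutase, was at 9.84 and 9.94 on the WT -Fe arrays but 9.28 and 9.00 on the uri -Fe arrays, against 11.73 to 12.22 with iron. The fall was 4.71-fold in WT and 6.75-fold in uri, with an interaction of -0.52 (95% interval -0.96 to -0.07) that missed the threshold (limma adjusted p = 0.0978) and passed it without uri +Fe replicate 2 (limma adjusted p = 0.0332) and with the eBayes trend and robust options (limma adjusted p = 0.0369). The copper enzyme CSD1 (AT1G08830) rose by 0.84 and 0.60, and its copper chaperone CCS (AT1G12520) by 0.68 and 0.65. For CSD2, another copper superoxide dismutase, a rise was called in WT but not in uri, and the interaction of -0.38 was not called. Of 9 measured copper genes 1 had a called interaction (2 without either uri -Fe replicate 1 or uri +Fe replicate 2). This was COPT2 (AT3G46900), a copper importer, which rose by 2.77 in WT and had -0.47 in uri (interaction -3.24 ± 0.27, adjusted p = 5.74e-06). Over all probe sets the interaction was called for 20.4%, so the copper list as a whole did not exceed that share.

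A further kept response came from outside the iron lists. NRT1.8 (AT4G21680), a nitrate transporter that removes nitrate from the xylem, rose by 2.12 in WT and 2.26 in uri. The malate exporter ALMT1 (AT1G08430) gave a lost fall, called so in 6 of 8 fits with 1 array left out. It was at 5.10 and 5.14 on the WT -Fe arrays and 6.94 and 7.05 on the WT +Fe arrays, and at 8.67 and 8.43 (-Fe) and 8.12 and 8.29 (+Fe) in uri, so that it was higher in uri in both media without overlap.

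Large positive interactions were frequent among genes that are induced in darkness and by sugar shortage. Of 15 measured, 14 had a higher response in uri and none a lower one, with a median interaction of 2.00 against 0.0004 over all probe sets, and 6 of the 14 fell in WT while they rose in uri. SEN1 (AT4G35770), a classical dark-induced gene, read 6.88 and 7.02 on the WT -Fe arrays, 8.41 and 8.88 on the WT +Fe arrays, 7.73 and 7.74 on the uri +Fe arrays and, far above all of these, 11.85 and 11.83 on the uri -Fe arrays. It fell 3.24-fold in WT and rose 17.2-fold in uri (interaction 5.80 ± 0.21, adjusted p = 1.56e-08). DIN11 (AT3G49620) was at 10.00 and 9.56 on the uri -Fe arrays and at 3.57 to 4.40 on the other 6, where it was dim in 3 groups. ASN1 (AT3G47340), an asparagine synthetase that rises when sugar is short, fell by 1.21 in WT and rose by 1.35 in uri. The trehalose phosphate synthase-like genes TPS8 (AT1G70290) and TPS11 (AT2G18700) rose by 2.04 and 1.86 in uri, against -0.40 (not called) and -0.87 in WT. Of the 15 genes, 14 were higher in uri without iron and 9 were lower in uri with iron, and 10 of the 14 differed between the genotypes in both media.

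Amino acid breakdown moved in the same direction. Of 22 measured genes 16 had a higher response in uri and none a lower one (median 1.64), and 10 of them fell in WT and rose in uri. BCAT-2 (AT1G10070), an aminotransferase of the branched-chain amino acids, was at 10.51 and 10.72 on the uri -Fe arrays and at 6.34 to 7.19 on the other 6 (interaction 4.54 ± 0.18, adjusted p = 3.35e-08). Its small fall in WT, 0.67, was called in 6 of 8 fits with 1 array left out. The next steps of that pathway followed, with interactions of 3.77 for DIN3 (AT3G06850), 3.34 for IVD (AT3G45300), 3.16 for MCCA (AT1G03090) and 2.65 for MCCB (AT4G34030). GDH1 (AT5G18170), a glutamate dehydrogenase, fell by 1.15 in WT and rose by 2.14 in uri. PRODH1 (AT3G30775), which degrades proline, rose by 0.99 in uri and had -0.21 in WT.

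Sugar transporters divided. Of 20 measured genes of sugar transport and sucrose cleavage, 9 had a higher and 3 a lower response in uri (median 0.34). The sucrose exporter SWEET12 (AT5G23660) was at 10.98 and 11.15 on the uri -Fe arrays and at 6.83 to 8.08 on the other 6 (interaction 3.62), and SWEET11 (AT3G48740) rose by 2.29 in uri. In contrast SWEET13 (AT5G50800) rose by 0.54 in WT and fell by 1.54 in uri, a reversal that was called in 4 of 8 fits with 1 array left out. DIR5 (AT1G64160), a dirigent protein, which couples lignan precursors, was at 9.37 and 9.63 on the uri -Fe arrays, at 3.70 and 3.64 on the uri +Fe arrays and at 4.11 and 4.00 on the WT +Fe arrays, and it was dim in all groups but uri -Fe (interaction 5.89 ± 0.21). The other 4 measured genes of its list had no called interaction (1 did without uri +Fe replicate 2).

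**Figure D4:**
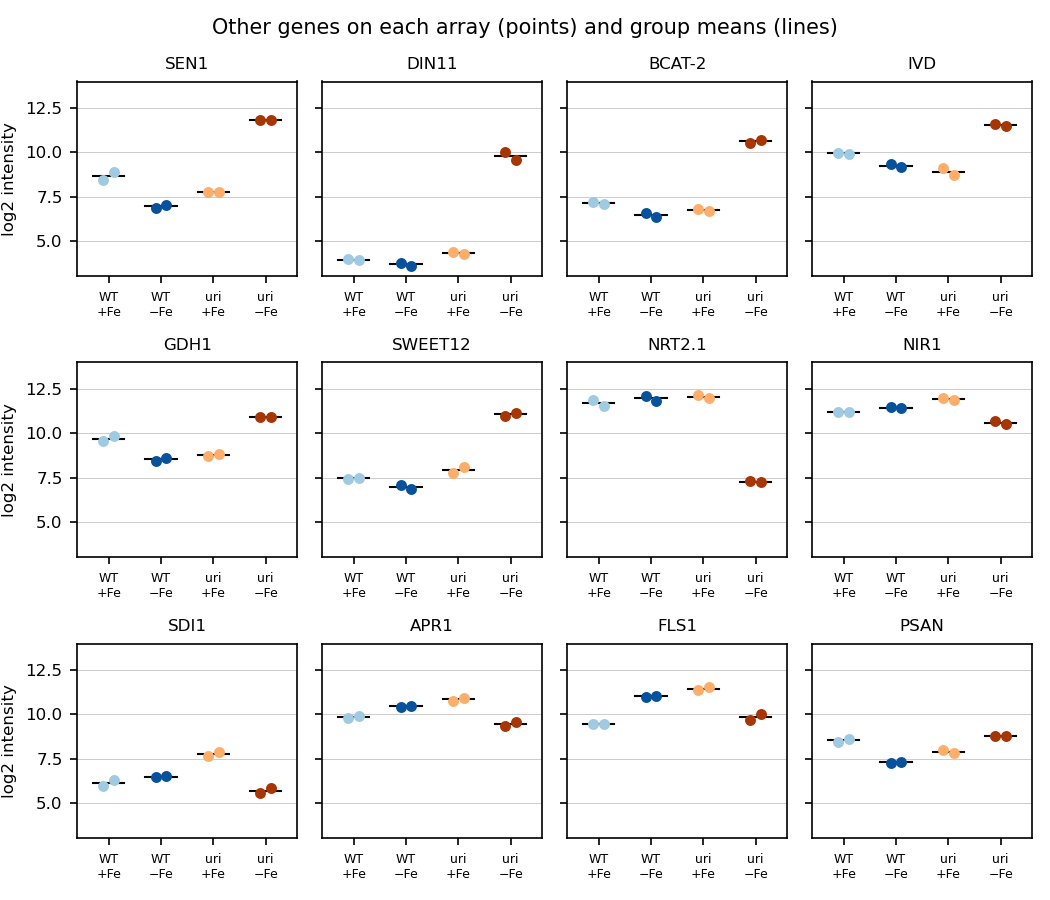
Log2 intensity on each of the 8 arrays (points), with a short line at each group mean, for 12 genes of dark response, amino acid breakdown, sugar export, nitrate and sulfate use, flavonols and photosynthesis. The uri -Fe arrays stand apart, high for SEN1, DIN11, BCAT-2 and SWEET12 and low for NRT2.1, while SDI1 and FLS1 are highest on the uri +Fe arrays.

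Nitrate and sulfate use moved downward in uri without iron. Of 19 measured nitrate genes 13 had a lower and 1 a higher response in uri (median -0.83), and 11 of the 13 fell in uri only. NRT2.1 (AT1G08090), the main high-affinity nitrate importer of the root, was at 7.29 and 7.27 on the uri -Fe arrays and at 11.55 to 12.14 on the other 6. Its fall was 27.7-fold in uri, against a response of 0.24 in WT that was not called (interaction -5.03 ± 0.20, adjusted p = 3.35e-08), the largest fall of a listed gene in uri. The subunit NRT3.1 (AT5G50200) fell by 1.28 in uri, nitrate reductase NIA1 (AT1G77760) by 1.19 and nitrite reductase NIR1 (AT2G15620) by 1.33. LBD38 (AT3G49940), a repressor of nitrate uptake, rose in uri, by 0.86. With iron 5 of the 19 genes were higher in uri.

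Sulfate genes had a lower response in uri for 13 of 15 measured and a higher one for none (median -1.27), but here the arrays with iron contributed more. Of the 15 genes, 10 were higher in uri than in WT with iron and 7 were lower without iron. SDI1 (AT5G48850), a marker of sulfur shortage, read 7.65 and 7.87 on the uri +Fe arrays, 5.95 and 6.29 on the WT +Fe arrays, 6.47 and 6.50 on the WT -Fe arrays, and lowest at 5.53 and 5.83 on the uri -Fe arrays. Its fall of 2.08 in uri thus began from a raised level. APR1 (AT4G04610), which reduces activated sulfate, was at 10.78 and 10.94 on the uri +Fe arrays but 9.32 and 9.56 on the uri -Fe arrays, against 9.80 and 9.89 (+Fe) and 10.42 and 10.48 (-Fe) in WT. LSU2 (AT5G24660), another gene of sulfur shortage, fell by 2.39 in uri and had 0.08 in WT. Glucosinolates, which store sulfur and nitrogen, had a lower response for 10 of 16 measured genes of their synthesis and a higher one for 1 (median -0.76), with SOT17 (AT1G18590) lowest at -1.71 and the regulator MYB28 (AT5G61420) at -1.09. MYB51 (AT1G18570) was the exception, at 0.87.

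Genes of growth fell in uri without iron. Of 19 measured genes of DNA replication and cell division 14 had a lower response in uri and none a higher one (median -0.80), 13 of them with a fall in uri only. The replication clamp PCNA1 (AT1G07370) fell by 1.24 in uri and had -0.02 in WT, the helicase subunit MCM4 (AT2G16440) fell by 1.31, and the mitotic cyclin CYCB1;1 (AT4G37490) by 1.17. The mean of the list was 7.24 and 7.27 on the uri -Fe arrays and 7.96 to 8.09 on the other 6 arrays. Of 155 cytosolic ribosomal protein genes, 113 fell in uri, against 18% of all probe sets, but the change was small (median -0.53). Of all probe sets 9.6% had a higher and 10.8% a lower response in uri than in WT. Of the 155 genes, 3 had a higher and 33 a lower response (median -0.32). That count fell to 10 and 15 without WT -Fe replicates 1 and 2, to 11 and 20 without uri -Fe replicates 1 and 2, and to 16 without WT +Fe replicate 1.

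Root hair and suberin markers moved as well. For xylem and phloem markers the interaction was called no more often than for all probe sets (20.4%). Their level was lower in uri for 7 of 12 without iron (1 was higher) and for 2 with iron (0 higher). Over all probe sets 14.4% were lower without iron and 1.78% with iron. The mean of the list was 8.05 and 8.07 on the WT -Fe arrays but 7.63 and 7.49 on the uri -Fe arrays. With iron it was 7.72 and 7.82 in WT and 7.57 and 7.51 in uri. None of the measured root hair, endodermis, xylem and phloem markers was dim in any group. This does not check the tissue label, because only 1 of 33 photosynthesis genes, markers of green tissue, was dim in any group. Of 9 measured root hair genes 6 had a lower response in uri and none a higher one (median -0.90). LRX1 (AT1G12040), a wall protein of root hairs, fell by 1.09 in uri and had 0.24 in WT. The mean of the list was 8.36 and 8.42 on the uri -Fe arrays and 8.67 to 9.10 on the others. Of 19 endodermis and suberin genes 9 had a lower and 2 a higher response (median -0.72), where the 2 became 1 without any of WT -Fe replicates 1 and 2, uri -Fe replicate 1, WT +Fe replicate 1 and uri +Fe replicate 2. The mean of the list was 9.28 and 9.34 on the WT -Fe arrays, 9.24 and 9.12 on the WT +Fe arrays, 8.69 and 8.49 on the uri -Fe arrays but 9.08 and 8.85 on the uri +Fe arrays. The 9 were genes of suberin, the barrier polymer of the endodermis, such as KCS2 (AT1G04220) with a fall of 1.13 and FAR4 (AT3G44540) with a fall of 1.11 in uri. FAR1 (AT5G22500), also a suberin gene, was 1 of the 2 with a higher response, with -0.72 in WT and -0.14 in uri (interaction 0.58, adjusted p = 0.0264), a lost fall in 3 of 8 fits with 1 array left out. The Casparian strip genes CASP1 (AT2G36100), CASP2 (AT3G11550) and CASP4 (AT5G06200) had interactions of -0.16, 0.02 and -0.17 that were not called, while CASP5 (AT5G15290) was higher at 1.09. The difference of uri from WT for CASP1 was -0.66 without iron and -0.50 with iron. Of 12 xylem and phloem markers 2 had a lower response and none a higher one (1 without uri +Fe replicate 1, median -0.32), LAC4 (AT2G38080) and VND7 (AT1G71930), and the 2 became 0 without either WT -Fe array, without uri -Fe replicate 2 or without WT +Fe replicate 1, and 1 without uri -Fe replicate 1 or either uri +Fe array. IRT1, FRO2 and the coumarin genes act in the outer root cells, and what part the root hair markers have in the interactions of iron uptake and coumarin genes was not tested.

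Photosynthesis genes, taken as markers of green tissue, were measured in these root samples and differed between the groups. Of 33 measured, 27 had a higher response in uri and none a lower one (median 1.05), 20 fell in WT and 16 rose in uri. Their mean level was 7.39 and 7.36 on the WT -Fe arrays, 7.96 and 8.10 on the WT +Fe arrays, 8.38 and 8.22 on the uri -Fe arrays but 7.88 and 7.76 on the uri +Fe arrays. The uri -Fe arrays were highest and the WT -Fe arrays lowest, with no overlap between any of the 4 groups. PSAN (AT5G64040), a photosystem I subunit, fell by 1.24 in WT and rose by 0.90 in uri, and LHCB4.1 (AT5G01530), an antenna protein, fell by 0.83 and rose by 1.17. This shift had the same sign as that of the dark-induced and amino acid genes, and its part in those results was not tested.

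**Figure D5:**
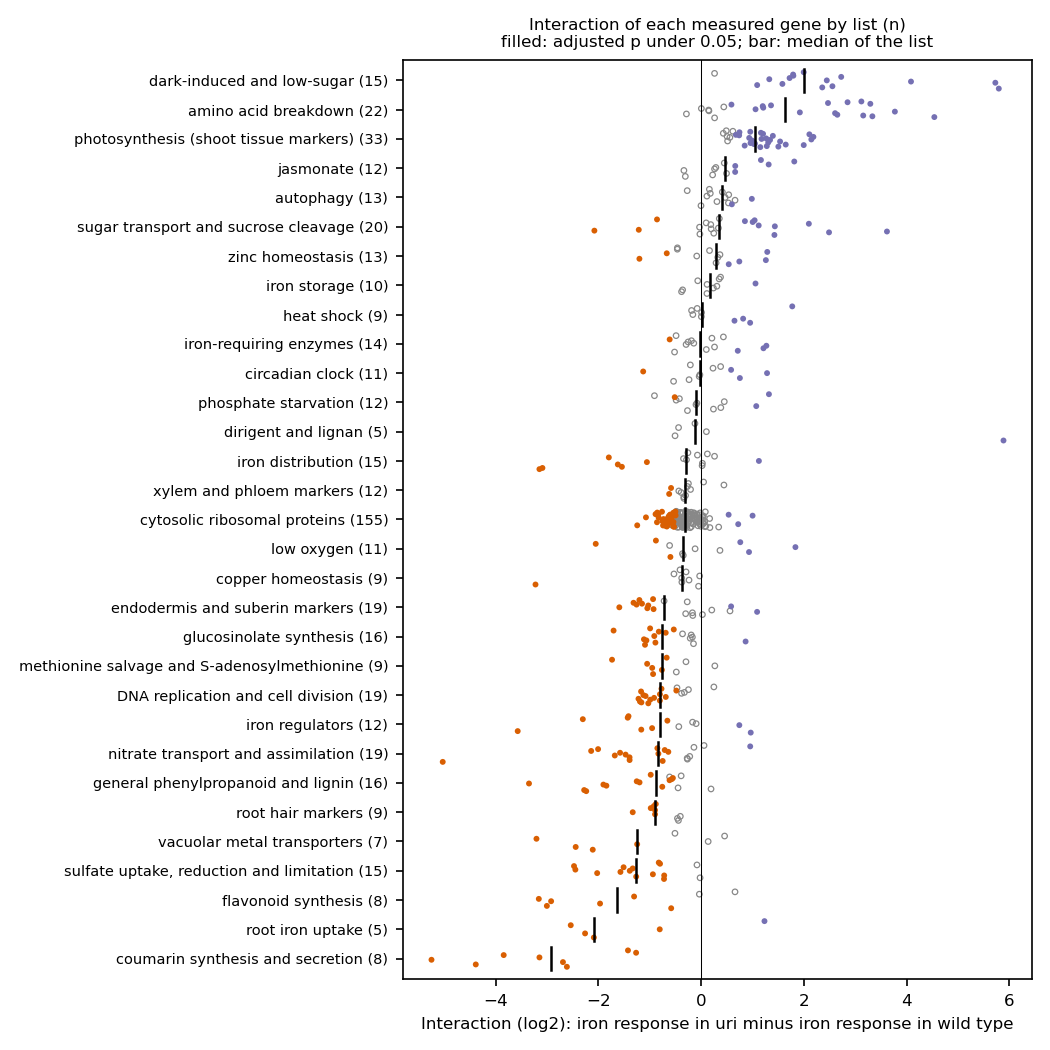
Interaction (log2) of each measured gene by gene list, with filled points for genes called at adjusted p under 0.05, open points for the others and a bar at each list's median. Coumarin genes all lie below 0 and are all filled, iron storage genes lie around 0, and dark-induced and photosynthesis genes lie above 0.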

How the data were processed

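The deposited values were linear intensity per probe set, summarised by the authors with RMA per the submitters' processing notes, with no version given, and no background or scaling step was repeated. Log2 was taken of the deposited intensities. Removing 64 controls from 22810 probe sets left 22746 for testing. Of these, 21180 matched a single gene, 1039 several and 527 none, and only single-gene probe sets were named, through the platform annotation and RefSeq gene symbols. A second deposited table of the same intensities differed by at most 5e-06.

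A linear model with 1 mean per group was fitted to all 8 arrays with limma 3.58.1 in R 4.3.3 (lmFit and eBayes, residual df 4, prior df 8.32). Tests were two-sided, with Benjamini-Hochberg adjustment over all probe sets and a threshold of 0.05. The median standard error was 0.184 for the interaction and 0.130 for the response of a single genotype, and the number of arrays limits the precision. The scripts were tested on simulated data. A gene with several probe sets was represented by the one with the highest mean intensity.

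Named genes were the iron markers, the 12 largest interactions in each direction, up to 8 genes per class and direction, and the members of lists with at most 12 measured genes (otherwise the 6 largest interactions and exceptions), from which the text prints those that matter most. A few further genes were chosen after their values were seen. The members and the 31 lists (435 genes, 398 measured) were chosen with earlier results of these data known, and lists carry no test. Alternatives covered centring, quantile normalization, a pseudocount of 16, a filter on low values, other eBayes options, the lower of a gene's probe sets, a replicate block, stricter thresholds and leaving out each array. Promoter motifs were not analysed here.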

Additional observations from a re-analysis of the deposited data

Results flagged for a closer look

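Each result below is listed because the iron response differed between the genotypes by the interaction term. The counts were 2183 probe sets with a higher and 2454 with a lower response in uri. Of these, 165 reversed rises and 173 reversed falls were called in both genotypes with opposite directions. Genes that rose in WT and fell in uri were led by BGLU42 with an interaction of -3.85, followed by XTH31 (AT3G44990), a xyloglucan-modifying wall enzyme, at -3.44 and by AT2G22590 at -3.39. The ligase 4CL3 was at -3.35, the trehalose phosphatase TPPI (AT5G10100) at -3.25, AT2G23910 at -3.18, FLS1 at -3.16 and the glucosyltransferase UGT84A1 (AT4G15480) at -3.14.

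Genes that fell in WT and rose in uri were led by SEN1 at 5.80 and BCAT-2 at 4.54. AT1G19530 was at 4.33, the RING finger gene ATL8 (AT1G76410) at 4.29, UMAMIT33 (AT4G28040), of an amino acid transporter family, at 4.08, AT1G72060 at 3.92, DIN3 at 3.77 and AT5G56100 at 3.71. The reversal of ATL8 was called in 4 of 8 fits with 1 array left out and was a gain in the other fits. The reversals of AT5G56100, AT1G72060, BCAT-2 and AT2G22590 were called in 5, 6, 6 and 7 of the 8 fits, and those genes were gains in the others. URI itself had an interaction of 0.97 with no called response in WT, and its transcript was lower in uri with iron and at the level of WT on the arrays labelled uri -Fe. Groups of 2 arrays do not allow a test for a stray array.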

How the results depend on the processing

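No called value changed sign under any alternative run, while some interactions near 0 that were not called, such as those of FER1 and ILR3, did. Of the values for named genes, 5095 stayed on their side of the threshold, 322 dropped out of it and 59 came into it. With 2 arrays per group, a change near the median SE passes or fails with the setting. The lowest probe set per gene and the second deposited table moved no count by over 1.5 times. Median centring moved the higher share of interaction calls from 47.1% to 54.5% and the median interaction to 0.0541, with 4217 calls shared. It moved the upward share of the calls in uri from 45.6% to 54.9%.

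The replicate numbers did not pair the arrays (correlations of deviations 0.139, -0.223, -0.032, -0.113, -0.036 and 0.155), and with the replicate block 4376 interactions were called, 4297 of them shared with the fit without it, while iron-requiring enzymes lower and phosphate starvation lower went to 0.

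At adjusted p under 0.01 the counts were 616 for the response of WT (426 higher, 190 lower), 2716 for uri lower, 2492 for the interaction (1257 higher, 1235 lower), 34 lost falls, 32 weakened rises, 1 weakened fall, 110 kept rises, 55 kept falls, 8 strengthened rises, 9 strengthened falls, 1057 gained rises, 904 gained falls, 67 reversed rises, 70 reversed falls and 87 positive and 90 negative interactions called alone. In the lists it left 0 iron-requiring enzymes lower, 1 zinc gene lower, 0 phosphate genes lower, 1 autophagy, 3 jasmonate, 2 heat shock and 1 endodermis gene higher, 0 xylem and phloem markers lower and 7 ribosomal genes lower.

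With a change of at least 2-fold also required, the counts were 248 for WT (192, 56), 1202 for uri (680, 522), 1475 for the interaction (782, 693), 104 lost rises, 20 lost falls, 12 weakened rises, 0 weakened falls, 20 kept rises, 15 kept falls, 2 strengthened rises, 2 strengthened falls, 499 gained rises, 307 gained falls, 15 reversed rises, 14 reversed falls, 172 and 188 undecided and 247 and 253 interactions called alone. Lower responses then numbered 7 phenylpropanoid, 0 iron-requiring, 2 methionine, 1 zinc, 8 nitrate, 8 sulfate, 0 phosphate, 1 low oxygen, 4 glucosinolate, 1 root hair, 0 xylem and phloem, 7 cell division and 2 ribosomal genes. Higher responses numbered 0 iron regulators, 2 zinc, 0 nitrate, 0 autophagy, 1 low oxygen, 3 jasmonate, 1 heat shock, 0 glucosinolate, 1 clock, 1 endodermis and 1 ribosomal gene. These are stricter rules on the same fit.

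With the eBayes trend and robust options there were 68 strengthened rises, 72 strengthened falls, 3 iron-requiring, 2 copper, 2 clock, 1 xylem and phloem and 55 ribosomal genes lower, and 4 autophagy genes higher. The pseudocount gave 73 strengthened falls, 2 iron-requiring, 2 copper, 2 phosphate and 2 clock genes lower and 1 xylem and phloem gene higher. Centring gave 1 flavonoid and 4 autophagy genes higher and 0 iron-requiring, 0 phosphate and 1 xylem and phloem gene lower. Quantile normalization gave 1 flavonoid gene higher and 0 iron-requiring and 0 phosphate genes lower. The filter on low values gave 1 flavonoid gene higher and 2 iron-requiring, 2 copper and 2 clock genes lower. The cause was not tested.

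With each array left out in turn, the counts ranged from 435 to 1729 for WT (324 to 1021 higher, 111 to 708 lower) and from 2849 to 4937 for the interaction (1425 to 2433 higher, 1424 to 2504 lower). The arm left with 1 array was assumed to vary like the others. The ranges were 103 to 270 lost rises, 18 to 128 lost falls, 1 to 3 weakened falls, 79 to 259 kept rises, 33 to 176 kept falls, 6 to 76 strengthened rises, 6 to 66 strengthened falls, 1115 to 1801 gained falls, 67 to 208 reversed rises, 49 to 250 reversed falls and 76 to 239 positive and 93 to 183 negative interactions called alone. In the lists, lower responses ranged from 0 to 1 dirigent, 0 to 1 iron storage, 0 to 2 iron-requiring, 1 to 2 copper, 1 to 3 zinc, 0 to 2 phosphate, 0 to 1 jasmonate, 1 to 2 clock, 0 to 2 xylem and phloem and 10 to 42 ribosomal genes. Higher responses ranged from 0 to 1 flavonoid, 2 to 4 zinc, 1 to 7 autophagy, 3 to 5 jasmonate, 2 to 4 heat shock, 1 to 4 clock, 1 to 3 endodermis and 0 to 1 xylem and phloem genes.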

Other observations

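Further lists are given here beside all probe sets, of which 9.6% had a higher and 10.8% a lower response in uri. The called count was below the joint share of 20.4% for autophagy genes. It was near that share for phosphate starvation genes and iron-requiring enzymes. Of 12 measured jasmonate genes 5 had a higher response in uri (median 0.47), and this was 3 without either WT -Fe array, either WT +Fe array or uri +Fe replicate 2. MYC2 (AT1G32640), the central factor of jasmonate signalling, was at 10.22 and 10.01 on the uri -Fe arrays and at 8.82 to 9.62 on the other 6 (interaction 1.16 ± 0.23, adjusted p = 0.00309). JAZ10 (AT5G13220), a repressor that jasmonate induces, was at 7.36 and 7.69 on the uri -Fe arrays and at 4.90 to 5.90 on the others. Of 9 heat shock genes, 6 of them dim in a group, 4 had a higher response (fewer without WT -Fe replicate 2) and 5 had no called interaction. The median interaction of the heat shock list was 0.008, and the chaperone HSP90.1 (AT5G52640) was highest at 1.77. Of 11 clock genes 3 had a higher response (1 without WT -Fe replicate 1) and 1 a lower one (2 without WT +Fe replicate 1). PRR7 (AT5G02810) was at 8.89 and 8.72 on the uri -Fe arrays and at 7.47 to 7.64 on the others, and GI (AT1G22770) was the lower gene, at -1.13.

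The iron responses of low oxygen genes did not differ in 1 direction, with 3 of 11 higher and 3 lower in uri. Their level was lower in uri for 7 of 11 without iron (1 was higher) and for 6 with iron (0 higher). Over all probe sets 14.4% were lower in uri without iron and 1.78% with iron. HRE1 (AT1G72360), a factor of the hypoxia response, rose by 0.71 in WT and 2.55 in uri, while the desaturase SAD6 (AT1G43800) fell by 1.78 in uri and had 0.27 in WT. Among 13 zinc genes 4 had a higher response (2 without WT -Fe replicate 2) and 2 a lower one (1 without either WT -Fe array, uri -Fe replicate 2 or WT +Fe replicate 2). The zinc pump HMA4 (AT2G19110), which loads the xylem, rose by 1.05 in uri and had -0.24 in WT, and the importer ZIP9 (AT4G33020) rose by 0.92 in WT and had -0.28 in uri. Of 12 phosphate starvation genes 6 fell in each genotype, 2 had a higher and 1 a lower response, and the 1 became 0 without any of the 4 arrays without iron, WT +Fe replicate 1 or uri +Fe replicate 1, and 2 when uri +Fe replicate 2 was left out. SPX1 (AT5G20150), a phosphate sensor, fell by 0.99 in WT and 1.25 in uri. Of 13 autophagy genes 7 rose in uri and 2 had a called interaction, which became 7 without uri +Fe replicate 1 and 1 without any of the 4 arrays without iron or uri +Fe replicate 2. Of 14 iron-requiring enzymes 3 had a higher and 1 a lower response (0 without either WT array of either medium or uri -Fe replicate 1, 2 without uri +Fe replicate 2), and the catalases CAT1 (AT1G20630) and CAT3 (AT1G20620) were the highest at 1.21 and 1.27.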
